A study of Mus musculus with 2 samples.

Results

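The muscle miRNAs known as myomiRs were examined in extracellular vesicles (EVs) from mouse serum, which are small membrane-bound bodies that tissues release into blood. The 8 myomiRs were taken by name from the deposited tables: mmu-miR-1a-3p, mmu-miR-133a-3p, mmu-miR-133a-5p, mmu-miR-133b-3p, mmu-miR-206-3p, mmu-miR-208a-3p, mmu-miR-208b-3p and mmu-miR-499-5p. All 8 were found among the 1847 miRNAs of each table, each in a row of its own. Names are given without the species prefix from here on. Male mice of 2 genotypes were compared, with 1 library for each. The iFIRKO-labelled library came from mice of the genotype Adipoq-CreERT2; Insr flox/flox, in which tamoxifen activates Cre under the adiponectin promoter and removes the insulin receptor from adipocytes. The control-labelled library has the genotype label WT, whereas the methods of the study describe floxed animals without Cre. miRNA tables hold no Insr reading, so neither label could be checked against the deletion, and all directions rest on the labels. The direction is in doubt. The study describes the red cell miRNAs it pursued as raised by the knockout, in sequencing and in quantitative RT-PCR of individual serum samples. It describes the bulk of miRNAs as lowered. Under the deposited labels both go the other way. For the bulk this depends on abundance and scaling. By the deposited values 1627 of 1847 miRNAs were higher in the iFIRKO-labelled library, but of the 118 with a mean count over 1000, 48 were higher and 70 lower. The median log2 ratio of all was 0.88, and TMM scaling lowers every log2 ratio by 0.85. If the labels were exchanged, every ratio and ratio of ratios below would be its inverse. The files do not settle which assignment holds. Mice of both groups were 7 weeks old, were given tamoxifen at 100 mg/kg on 5 days in a row and were sampled on day 3 after the last injection. Serum of several mice was pooled for each library, so no spread between animals was measured, no test between the genotypes was possible, and every ratio below compares one library with the other.

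MyomiRs are transcribed mostly in striated muscle. miR-1 and miR-133a are made together in skeletal and cardiac muscle, where they act on differentiation and proliferation of muscle cells. miR-206 and miR-133b are made from a shared locus mainly in skeletal muscle, and miR-206 is known for its role in myogenic differentiation and in the repair of nerve-muscle contacts. miR-208a, miR-208b and miR-499 lie within myosin heavy chain genes and take part in the choice between fast and slow myosin programmes. Blood levels of several of these miRNAs are known to rise after damage to skeletal muscle or heart. The tables hold vesicle RNA of serum and no muscle sample, so the tissue that released these miRNAs could not be checked.

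The mature sequences of the less abundant members are shown because their seeds (bases 2 to 8 from the 5′ end, in capitals) sort them into families. The sequences are those of RefSeq for GRCm38.p6, and a matching entry was found for 5 of the 8 members.
miR-206-3p: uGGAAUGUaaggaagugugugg
miR-133b-3p: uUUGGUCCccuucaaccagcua
miR-208a-3p: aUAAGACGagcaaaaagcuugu
miR-208b-3p: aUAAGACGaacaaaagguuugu
miR-499-5p: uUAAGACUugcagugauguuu

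miR-208a-3p and miR-208b-3p had the same seed and differed at 3 of 22 positions (G10A, A16G and C18U, counted from the 5′ end, with the base of miR-208a-3p first). The seed of miR-499-5p differed from theirs in its last base, so these 3 miRNAs shared bases 2 to 7. Of the 1679 mature miRNAs of the RefSeq table, only these 3 had UAAGAC at bases 2 to 7 (0.179%). miR-1a-3p belongs to the seed family of miR-206-3p, and miR-133a-3p to that of miR-133b-3p. miR-133a-3p and miR-133b-3p are near-identical in sequence, and how the authors divided reads between them was not given in the sources used here, so their separate values are uncertain.

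The hairpins lie at several loci of GRCm38. Mir206 (chr1:20679010-20679082) and Mir133b (chr1:20682769-20682887) are on the plus strand, 3686 bases apart, and both overlap an exon of the long noncoding RNA gene Gm28653 on that strand. Mir1a-1 (chr2:180389048-180389124) and Mir133a-2 (chr2:180398379-180398482) lie 9254 bases apart on the plus strand, outside other annotated genes. Second copies, Mir1a-2 and Mir133a-1, lie within introns of Mib1 on the strand opposite to that gene. Mir208a (chr14:54949060-54949142) lies in an intron of Myh6, which encodes the alpha cardiac myosin heavy chain, and Mir208b (chr14:54975700-54975776) in an intron of Myh7, which encodes the beta (slow) chain, both on the minus strand like their hosts. Mir499 (chr2:155622880-155622958) lies in an intron of Myh7b on the plus strand. miR-1a-3p and miR-133a-3p can therefore come from more than one hairpin, and their counts could not be assigned to a copy.

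The deposited signal is a whole count for each miRNA divided by 1 constant for each library, and that constant was taken as the depth. The depth was 3817902 counts in the control-labelled library and 2233498 counts in the iFIRKO-labelled library, a 1.71-fold difference. Levels are given as counts per 1000000 (CPM), and the lowest value of each file was read as a floor that stands for fewer than 10 counts, or 2.62 CPM in the control-labelled library and 4.48 CPM in the iFIRKO-labelled library. All 8 myomiRs were above the floor in both libraries. Intervals are 95% intervals and cover counting error only, since the sources do not say if molecular identifiers were used in counting.

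Together the myomiRs made up 1.14% of the control-labelled library (43596 counts, Wilson interval 1.13 to 1.15) and 1.04% of the iFIRKO-labelled library (23308 counts, 1.03 to 1.06). The summed share was lower in the iFIRKO-labelled library, with a ratio of 0.914 (0.899 to 0.929) on the deposited scale. No scaling tried could bring it above 1, since equal totals divide every ratio by 0.998 and the other scalings lower every ratio. miR-1a-3p and miR-133a-3p carried most of this sum. Without them the other 6 members summed to 3742 and 2155 counts, with a ratio of 0.984 (0.933 to 1.04), whose interval included 1 on the deposited scale. The interval also included 1 with equal totals (0.987, 0.935 to 1.04). It lay below 1 under the other scalings, at 0.845 (0.801 to 0.892) with miR-148a-3p, 0.819 (0.776 to 0.863) with the median of ratios and 0.545 (0.516 to 0.574) with TMM. Whether a lower share reflects fewer vesicles from a source or less miRNA in each vesicle cannot be told apart in such data.

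The ubiquitous striated muscle pair was highest. miR-1a-3p had 25964 counts (6801 CPM) in the control-labelled library and 13778 counts (6169 CPM) in the iFIRKO-labelled library, and it ranked 32 of 1847 in each. miR-133a-3p had 13890 counts (3638 CPM) and 7375 counts (3302 CPM), and it ranked 43 in each. Both were slightly lower in the iFIRKO-labelled library, by a ratio of 0.907 (0.888 to 0.926) for miR-1a-3p and of 0.908 (0.882 to 0.934) for miR-133a-3p. Their parts of all myomiR counts were nearly the same, at 59.6% and 59.1% for miR-1a-3p and 31.9% and 31.6% for miR-133a-3p.

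The skeletal muscle pair exchanged places between the libraries. The values of miR-133b-3p rest on how its reads were divided from those of near-identical miR-133a-3p. miR-133b-3p had 1422 counts (372 CPM) in the control-labelled library and 600 counts (269 CPM) in the iFIRKO-labelled library. miR-206-3p had 1048 counts (274 CPM) and 798 counts (357 CPM), so that 1 of the pair had a lower level and the other a higher one. miR-133b-3p was thus the more abundant of both in the control-labelled library, by 1.36-fold (1.25 to 1.47), and miR-206-3p in the iFIRKO-labelled library, by 1.33-fold (1.19 to 1.48). The ratio of miR-133b-3p was 0.721 (0.655 to 0.794), and no scaling tried could bring it above 1. That of miR-206-3p was 1.30 (1.19 to 1.43) on the deposited scale, but it was 1.08 (0.986 to 1.19) with the median of ratios and 0.720 (0.656 to 0.790) with TMM scaling.

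The members within myosin genes were lower still. miR-208a-3p, the cardiac member, had 561 counts (147 CPM) in the control-labelled library and 322 counts (144 CPM) in the iFIRKO-labelled library. Its ratio of 0.981 (0.853 to 1.13) could not be distinguished from 1 at this depth on the deposited scale, while it was 0.816 (0.709 to 0.937) with the median of ratios. miR-499-5p had 516 counts (135 CPM) and 240 counts (107 CPM), which gives 0.795 (0.679 to 0.928). miR-208b-3p, which accompanies beta myosin in slow fibres, had only 83 counts (21.7 CPM) and 99 counts (44.3 CPM). Its ratio of 2.04 (1.51 to 2.76) was the largest of the 8, but with TMM scaling it was 1.13 with an interval that included 1 (0.834 to 1.53).

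The last member, miR-133a-5p, is the minor arm of the miR-133a hairpins. It had 112 counts (29.3 CPM) in the control-labelled library and 96 counts (43.0 CPM) in the iFIRKO-labelled library. Its ratio was 1.47 (1.10 to 1.94) on the deposited scale and 0.811 (0.611 to 1.07) with TMM scaling, so that its direction depended on the scaling.

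In the order of levels, 4 steps from miR-1a-3p to miR-208a-3p exceeded counting error in both libraries, with miR-206-3p and miR-133b-3p exchanged. miR-208a-3p and miR-499-5p did not differ beyond counting error in the control-labelled library (1.09-fold, 0.963 to 1.23), and neither did miR-208b-3p and miR-133a-5p in the iFIRKO-labelled library (1.03-fold, 0.771 to 1.38). Levels of different miRNAs within a library also carry any bias in adapter ligation, which was not measured.

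**Figure D1:**
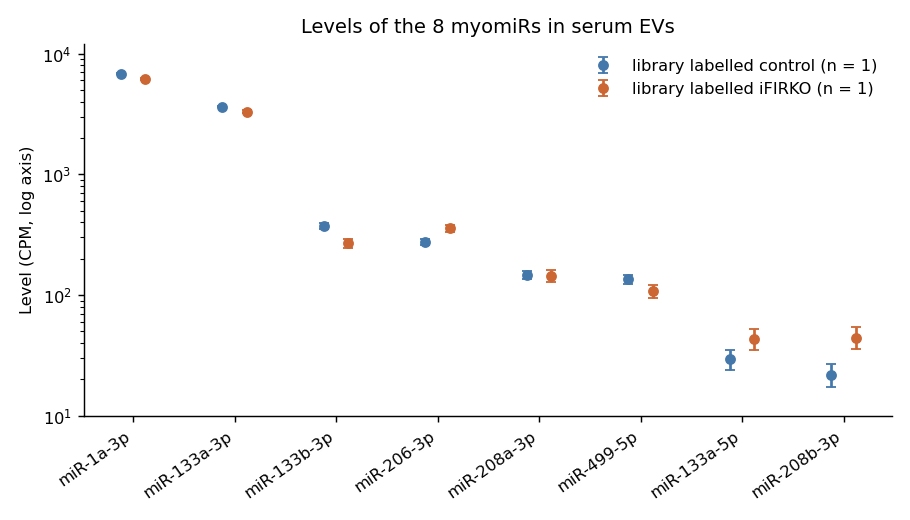
Level of each myomiR in CPM (log axis) in the control-labelled library (blue) and the iFIRKO-labelled library (orange), 1 library for each group, with exact Poisson 95% intervals as bars. The levels span from 6801 CPM for miR-1a-3p to 21.7 CPM for miR-208b-3p in the control-labelled library, and miR-133b-3p and miR-206-3p are exchanged in order between the libraries.

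Against the 1.5-fold threshold of the study, 1 of the 8 myomiRs (miR-208b-3p) was higher and 0 were lower in the iFIRKO-labelled library. Among all 1847 miRNAs, 66.3% were higher past that threshold and 3.03% lower. With the labels exchanged, 0 myomiRs would be higher and 1 lower, and the 2 background shares would change places. On the deposited scale the interval lay above 1 for miR-206-3p, miR-133a-5p and miR-208b-3p, and below 1 for miR-1a-3p, miR-133a-3p, miR-133b-3p and miR-499-5p. That of miR-208a-3p included 1. The share of all miRNAs with such intervals is not given here, and the shares above are for the 1.5-fold threshold only. The median log2 ratio of the 8 was -0.08, beside 0.88 for all miRNAs. With TMM scaling, which lowers every log2 ratio by 0.85, 0 members were higher and 5 were lower past 1.5-fold, and the median was -0.94.

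**Figure D2:**
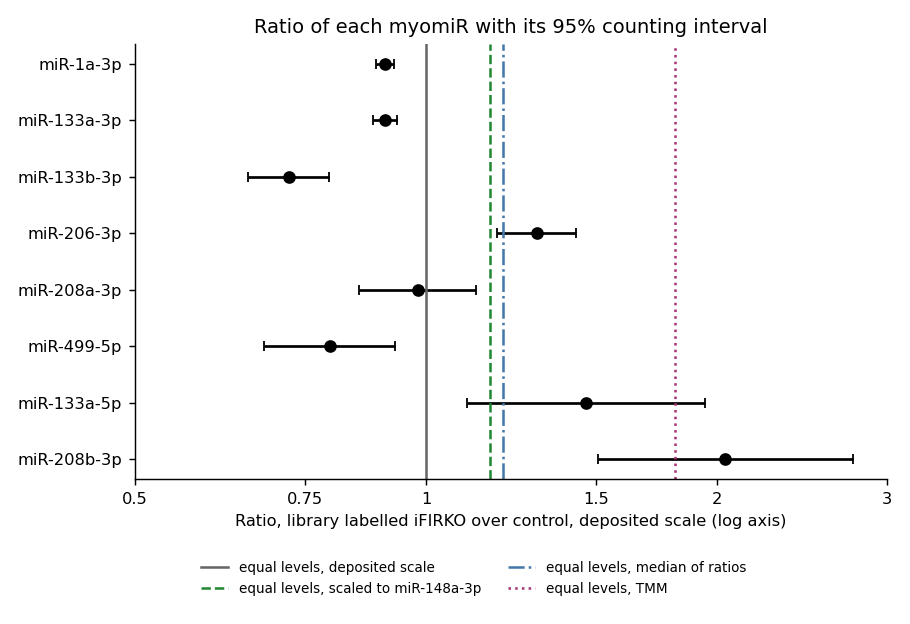
Ratio of the iFIRKO-labelled library over the control-labelled library for each myomiR on the deposited scale (log axis), with bars for the 95% counting interval and vertical lines where equal levels would lie on the deposited scale and under 3 other scalings. Moving the line from 1 to the TMM factor of 1.81 puts 7 of the 8 points to its left, and only miR-208b-3p stays to its right.

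Over all miRNAs the ratio was lower at higher abundance, so each member was read beside miRNAs of a similar mean count of both libraries. Of the 118 miRNAs with a mean count over 1000, 2.54% were over 1.5-fold higher and 9.32% lower, and their median ratio was 0.952. The 3 members in this class (miR-1a-3p, miR-133a-3p and miR-133b-3p) all lay below that median. For miR-1a-3p, 48 of the 118 miRNAs had a lower ratio, and for miR-133b-3p 20 did, so that the first lay near the middle of its class and the second towards its lower end.

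In the class from 100 to 1000 counts (302 miRNAs), 47% were over 1.5-fold higher and 2.32% lower, with a median ratio of 1.44. miR-499-5p had a ratio of 0.795, and only 19 of the 302 had a lower one. For miR-208a-3p, 58 of the 302 had a lower ratio, for miR-206-3p 126 and for miR-133a-5p 154. The cardiac miR-208a-3p thus had nearly equal levels in both libraries in a class with a median ratio well above 1, while miR-133a-5p sat at the middle of the class.

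In the class from 10 to 100 counts (1350 miRNAs), 76.7% were over 1.5-fold higher and 0.444% lower, with a median ratio of 2.01. miR-208b-3p, the single myomiR past 1.5-fold, had a ratio of 2.04 and was at the middle of this class, with 699 of the 1350 below it. Over all classes, 6 of the 8 members lay below the median of their class. This count depends on the class limits. It includes miR-206-3p, whose mean count of 923 is near the upper limit of its class. In a window of mean counts from 500 to 2000, described below, 62 of 73 miRNAs had a lower ratio than miR-206-3p. The part of the abundance trend in the ratio of a single low member was not tested.

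**Figure D3:**
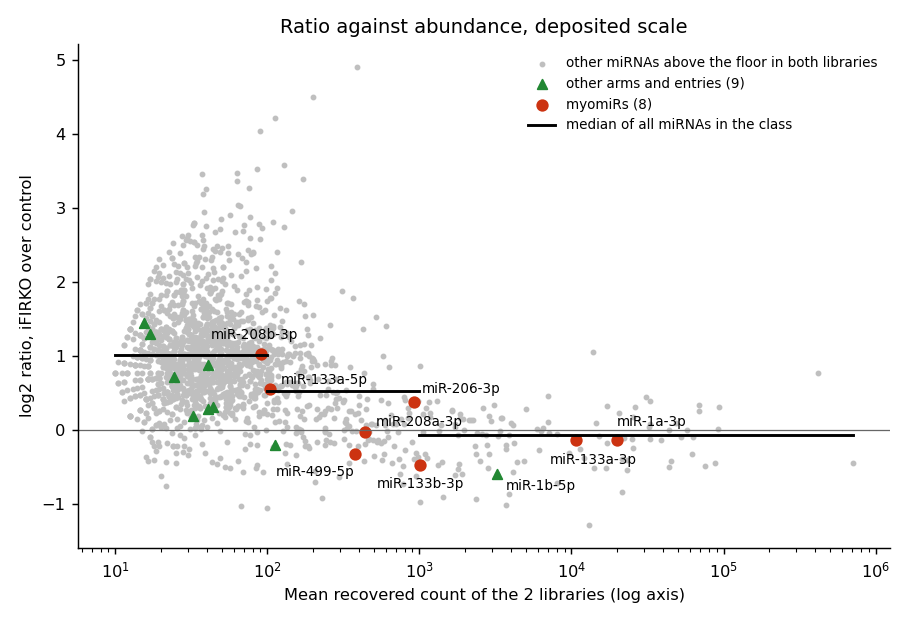
Log2 ratio (iFIRKO-labelled over control-labelled library, deposited scale) against the mean recovered count (log axis) for miRNAs above the floor in both libraries (grey), the 8 myomiRs (red) and 9 other arms and entries of the same families (green triangles), with black lines for the median of all miRNAs in each count class. miR-208b-3p and miR-133a-5p lie close to the lines at 1.01 and 0.53, whereas miR-499-5p and miR-133b-3p lie below theirs.

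The ratio of one myomiR to another does not depend on the scaling between libraries, and a constant bias of a miRNA in library preparation cancels. A total of 7 pairs was compared, each as a ratio of ratios with an exact conditional interval. miR-1a-3p and miR-133a-3p, which share their loci, had the same ratio. There were 1.87 counts of miR-1a-3p for each count of miR-133a-3p in either library, and the ratio of ratios was 0.999 (0.965 to 1.04). The intervals of the other 6 pairs did not include 1, also at the level of 99.3% that adjusts for 7 pairs. The pair of miR-133a arms among them is described with the hairpins. These intervals cover counting error only. The share of all pairs of miRNAs with such intervals was not computed, so the count is not a result particular to myomiRs.

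miR-206-3p and miR-133b-3p, clustered at the other locus, had different ratios, though that of miR-133b-3p rests on the division of near-identical reads. miR-206-3p had 0.737 counts for each count of miR-133b-3p in the control-labelled library and 1.33 in the iFIRKO-labelled library, a ratio of ratios of 1.80 (1.58 to 2.07). Their mean counts were 923 and 1011, and the part of the trend with abundance in this pair was not tested. In a window of mean counts from 500 to 2000, chosen after their values were seen, the median ratio of the 73 miRNAs was 0.999. In this window 62 miRNAs had a lower ratio than miR-206-3p and 10 a higher one, and for miR-133b-3p the numbers were 10 lower and 62 higher.

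Pairs with a common seed also differed. miR-1a-3p had 24.8 counts for each count of miR-206-3p in the control-labelled library and 17.3 in the iFIRKO-labelled library (ratio of ratios 0.697, 0.634 to 0.767). miR-133a-3p had 9.77 and 12.3 counts for each count of miR-133b-3p (1.26, 1.14 to 1.39), a value that rests on the division of near-identical reads. miR-208a-3p had 6.76 and 3.25 counts for each count of miR-208b-3p (0.481, 0.344 to 0.673). miR-208b-3p relative to miR-499-5p, hosted by Myh7 and Myh7b, gave 2.56 (1.82 to 3.61). Both of the latter pairs set a member of the lowest class against more abundant ones, and the median ratios of those classes (2.01 and 1.44) differ in the same direction. miR-1a-3p and miR-206-3p also lie in different classes, with median ratios of 0.952 and 1.44 that differ in the same direction as this pair. The mean count of miR-206-3p (923) is near the upper limit of its class. The part of the abundance trend in these pairs was not tested.

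Members were also summed as the skeletal pair and as the members within myosin genes, groups chosen after their values were seen. The latter group is not a single tissue, since miR-208a-3p is cardiac and miR-208b-3p accompanies beta myosin in slow fibres. The intervals of both sums included 1 on the deposited scale and with equal totals. They lay below 1 with miR-148a-3p, the median of ratios and TMM. miR-206-3p and miR-133b-3p together had 2470 and 1398 counts, a ratio of 0.967 (0.905 to 1.03) that was 0.805 (0.753 to 0.860) with the median of ratios and 0.535 with TMM. miR-208a-3p, miR-208b-3p and miR-499-5p together had 1160 and 661 counts, a ratio of 0.974 (0.884 to 1.07) that was 0.810 (0.735 to 0.892) with the median of ratios and 0.539 with TMM. There were 0.470 counts of the myosin-gene members for each count of the skeletal pair in the control-labelled library and 0.473 in the iFIRKO-labelled library, with a ratio of ratios of 1.01 (0.895 to 1.13). Relative to miR-1a-3p and miR-133a-3p, the skeletal pair gave 1.07 (0.996 to 1.14) and the myosin-gene members 1.07 (0.973 to 1.18).

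**Figure D4:**
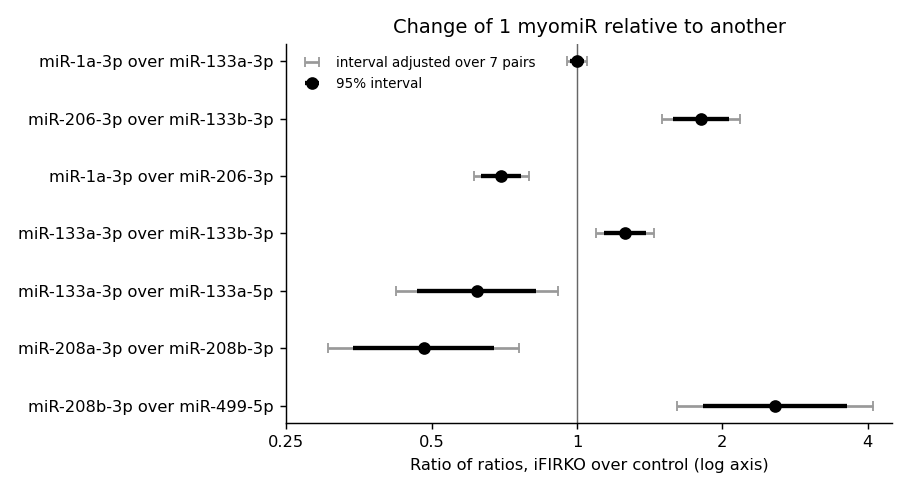
Ratio of ratios (iFIRKO-labelled over control-labelled library, log axis) for the 7 pairs of myomiRs, with thick bars for the 95% interval and thin bars for the interval adjusted over 7 pairs. miR-1a-3p over miR-133a-3p sits at 0.999, and the other 6 pairs lie away from 1, from 0.481 to 2.56.

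The other arms of the hairpins were then examined, together with miR-1b and miR-133c. The hairpins are shown for a 3p-dominant, a 5p-dominant and the least one-sided case, with the arm counted as a myomiR in capitals (RefSeq, GRCm38.p6).
Mir206: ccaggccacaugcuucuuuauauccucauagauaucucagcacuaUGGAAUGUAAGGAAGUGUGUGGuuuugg
Mir499: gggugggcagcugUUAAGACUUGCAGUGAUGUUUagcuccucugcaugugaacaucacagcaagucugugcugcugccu
Mir208b: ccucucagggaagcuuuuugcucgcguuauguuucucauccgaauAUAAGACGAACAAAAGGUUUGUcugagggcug

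In Mir206 the 3p arm made up 98.9% of the counts of both arms in the control-labelled library (1048 against 12) and 97.7% in the iFIRKO-labelled library (798 against 19). In Mir499 the 5p arm made up 93.0% (516 against 39) and 90.2% (240 against 26). Mir208b was the least one-sided, with 63.4% from the 3p arm in the control-labelled library (83 against 48, exact interval 54.5 to 71.6) and 74.4% in the iFIRKO-labelled library (99 against 34, 66.2 to 81.6). Mir208a gave 91.7% and 89.7% from its 3p arm, and Mir133b gave 99.0% and 96.8%. The miR-133a hairpins, which cannot be told apart, gave 99.2% and 98.7% from the 3p arm. The arm kept as the myomiR was thus the more abundant one for all 6 in both libraries.

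Relative to the minor arm, the main arm was lower in the iFIRKO-labelled library for 5 of the 6. The interval of this ratio of ratios lay below 1 for Mir133b (0.295, 0.137 to 0.620) and miR-133a (0.619, 0.467 to 0.824), included 1 for the other 4, and was above 1 by its point value only for Mir208b (1.68, 0.962 to 2.96). The minor arms had few counts, and low counts had higher ratios over all miRNAs, as given above for the classes. The part of that trend in the arm shares was not tested. The share of all hairpins with a lower main arm was not computed. The counts of miR-133b-3p and miR-133a-3p also rest on the division of near-identical reads.

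**Figure D5:**
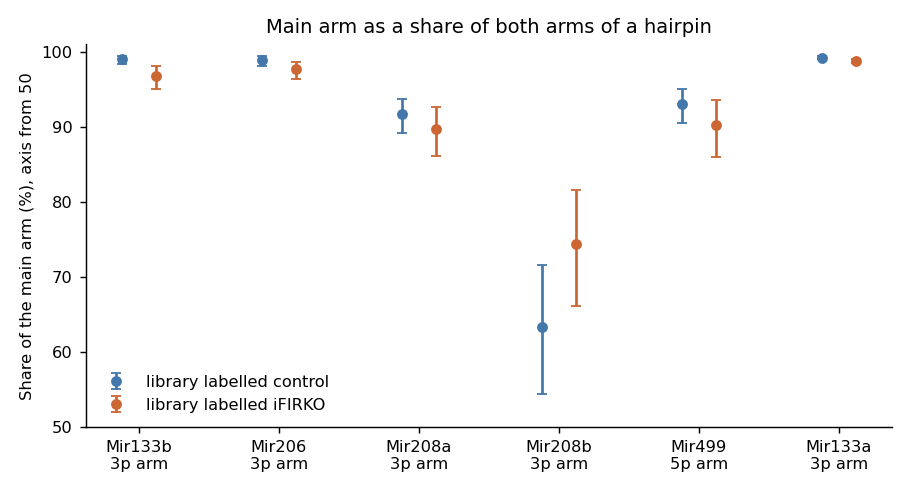
Share of the main arm among the counts of both arms (percent, on an axis that does not start at 0) for 6 hairpins or hairpin pairs in the control-labelled library (blue) and the iFIRKO-labelled library (orange), with exact binomial 95% intervals. Mir208b stands apart at 63.4% and 74.4%, and the others lie near 90% or above.

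Of the 10 listed other arms and entries, 9 were measured. For 7 of them the mean count was under 100, with 12 to 51 counts in a library, and 7 of the 9 lay below the median ratio of their count class. On the deposited scale 3 had intervals above 1 (miR-1b-3p, miR-133b-5p and miR-206-5p), 1 below 1 and 5 including 1. The share of all miRNAs with such intervals is not given here. The background of 66.3% higher past 1.5-fold applies here too, and 4 of the 9 were past it. miR-1a-1-5p, which comes from Mir1a-1 alone, had 148 counts (38.8 CPM) and 75 counts (33.6 CPM), which gives 0.866 (0.647 to 1.15).

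miR-1b-5p stood out among these entries. It had 4687 counts (1228 CPM) in the control-labelled library and 1810 counts (810 CPM) in the iFIRKO-labelled library, more than each member other than miR-1a-3p and miR-133a-3p. In the annotation, Mir1b overlaps Mir1a-2 on the opposite strand. The ratio of miR-1b-5p was 0.660 (0.625 to 0.697), past 1.5-fold lower, and 10 of the 118 most abundant miRNAs (the class over 1000 counts) had a lower one. For each count of miR-1a-3p there were 0.181 counts of miR-1b-5p in the control-labelled library and 0.131 in the iFIRKO-labelled library, a ratio of ratios of 0.728 (0.686 to 0.771) in a pair chosen after its values were seen. The 3p arm of Mir1b had 39 and 42 counts.

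Further miRNAs known to be abundant in striated muscle, though not particular to it, were read beside the myomiRs. The level of miR-22-3p was 1769 CPM (6752 counts) and 1320 CPM (2948 counts), which gives a ratio of 0.746 (0.714 to 0.779). miR-486a-5p, from an intron of the ankyrin gene Ank1 and abundant in muscle and in red cells, had a ratio of 0.700 (0.684 to 0.717). miR-26a-5p had a ratio of 0.945 (0.923 to 0.968), and miR-378a-3p, from the Ppargc1b gene, one of 1.21 (1.17 to 1.26) that was 0.671 with TMM scaling. None of these 4 was past 1.5-fold on the deposited scale. All lie in the class over 1000 counts, where 2.54% of miRNAs were higher and 9.32% lower past that threshold. With the median of ratios, miR-486a-5p (0.582) and miR-22-3p (0.621) were over 1.5-fold lower. With TMM scaling, miR-486a-5p (0.387), miR-22-3p (0.413) and miR-26a-5p (0.523) were.

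Markers of other sources were compared with the summed myomiRs, again as ratios that do not depend on scaling. As background, 220 of all 1847 miRNAs were lower in the iFIRKO-labelled library on the deposited scale. The markers lie in the classes from 100 to 1000 counts and over 1000 counts. In the first, 66 of 302 were lower and 236 higher, and in the second 70 of 118 were lower and 48 higher. The 4 smooth muscle miRNAs (both arms of miR-143 and of miR-145a) were all lower in the iFIRKO-labelled library (median log2 ratio -0.43), and their sum was 0.856% of the control-labelled and 0.650% of the iFIRKO-labelled library. Relative to that sum the myomiRs were 1.20-fold higher (1.17 to 1.24) in the iFIRKO-labelled library. The 4 hepatic miRNAs were all higher in the iFIRKO-labelled library on the deposited scale (median log2 ratio 0.45). Among them was miR-122-5p, the main liver miRNA, with a ratio of 1.71. The 4 summed to 12.1% and 20.2%. Most of this sum was miR-122-5p, with 417919 of 460346 counts in the control-labelled library and 417108 of 451011 in the iFIRKO-labelled library. The sum thus mainly follows this miRNA, and the other hepatic miRNAs had ratios from 1.35 to 1.37. The ratio of the sum was 1.67 on the deposited scale and 0.926 with TMM scaling. Relative to the sum, the ratio of the myomiRs was 0.546 (0.537 to 0.555). The 8 red cell miRNAs were all lower in the iFIRKO-labelled library (median log2 ratio -0.85). The list is not independent, since 4 of them were picked by the study from these libraries. Those 4 had ratios from 0.409 to 0.557 under the deposited labels, with miR-451a, the most typical of red cells, the lowest. This is the reverse of the direction in which the study describes them, both by sequencing and by quantitative RT-PCR of individual serum samples. The 8 summed to 5.60% and 3.69%, and miR-486a-5p is also in the muscle list above. Most of this sum was miR-486b-5p, with 123880 of 213665 counts in the control-labelled library and 53082 of 82526 in the iFIRKO-labelled library. The ratio of miR-486b-5p was 0.732 and that of the sum 0.660, so the sum mainly follows this miRNA. Relative to the sum of the 8, the myomiRs were 1.38-fold higher (1.36 to 1.41). The summed myomiRs therefore lay between the hepatic miRNAs and those of smooth muscle and red cells. The part of red cell RNA in the serum in these differences was not tested.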

How the data were processed

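Total RNA of serum EVs was isolated with an exosome kit and miRNeasy Micro columns. The authors used QIAseq miRNA chemistry and a NextSeq500 instrument, and they analysed reads on the GeneGlobe Data Analysis Center. The genome build in the submitters' processing notes is mm10, and the aligner and the miRNA release were not given in the sources used here. The deposited files hold 1 normalized signal for each miRNA, and 100% of the values came out as whole counts within the rounding of the printed digits. Counts were recovered from them. No recovered count lay from 2 to 9.

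Ratios were computed on the deposited signal without a pseudocount, because no value was 0. The interval of a ratio comes from the Clopper-Pearson interval of the iFIRKO share of both counts, and that of a ratio of ratios is the exact conditional interval of the odds ratio (Python 3.11.15, scipy 1.17.1). With 1 library for each group no count model could be run between groups, and no p-value is given. The alternatives were scaling to equal totals, to miR-148a-3p (the reference of the study), to the median of ratios over miRNAs averaging 100 counts or more and to TMM factors (edgeR 4.0.16 in R 4.3.3), 1 CPM added, floor entries set to 10 counts, filters at mean counts of 10 and 100, and a 2-fold threshold. Sums of members were rescaled by the same factors. Exchanging the library labels was added after the values were seen. The interval code was tested on simulated data. Hairpins were placed on GENCODE M21 (GRCm38).

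The miRNAs named are the 8 members, a list of their other arms, a list of further muscle miRNAs and up to 3 of each marker list. The members and lists were chosen with earlier results of these data known, and other choices made after values were seen are marked as such.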

Additional observations from a re-analysis of the deposited data

How the results depend on the processing

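With 1 library per genotype no replicate could be left out. No paired analysis was possible because neither genotype was sequenced more than once. Scaling to equal totals, adding 1 CPM and setting floor entries to 10 counts moved no ratio of the 8 myomiRs beyond its counting error. With the median of ratios, 2 members were over 1.5-fold lower, the median log2 ratio was -0.35 and the ratio of the summed share was 0.760. Scaling to miR-148a-3p gave 1 lower member, -0.30 and 0.785, and TMM scaling gave 5 lower and 0 higher members, -0.94 and 0.506. These shifts follow from 1 factor applied to every miRNA. TMM scaling reversed miR-133a-5p (0.811) and miR-206-3p (0.720). The filter at a mean count of 100 left 0 higher members, since it removed miR-208b-3p. A 2-fold threshold kept 1 higher and 0 lower. The sum without miR-1a-3p had a ratio of 0.924. Adding 0.5 counts moved none of the 7 ratios of ratios beyond its interval. With the library labels exchanged, an alternative chosen after seeing the data, 0 members were higher and 1 lower, the median log2 ratio was 0.084 and the summed ratio 1.09. Depth limits miR-208b-3p and miR-133a-5p most, at 83 to 112 counts.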
